A study of Drosophila melanogaster with 4 samples.

Results

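The Imp genes are 5 genes of *Drosophila melanogaster* whose names carry the prefix Imp, namely ImpE1 (FBgn0001253), ImpE2 (FBgn0001254), ImpE3 (FBgn0001255), ImpL1 (FBgn0001256) and ImpL2 (FBgn0001257). They were chosen by name, with earlier results of these data known, and all 5 were found among the 14885 genes counted. RNA was sequenced from eye-antennal imaginal discs of wandering larvae in the third instar, the larval epithelia that form the adult eye, antenna and head cuticle. Discs of the glass mutant gl[60j] gave 2 libraries, which the series' design text describes as technical replicates and which therefore count as 1 sample. Wild-type discs gave 1 library from the strain Canton S and 1 from RAL-208, described there as 2 biological replicates. No transgene, treatment, pooling of animals or larval age beyond the stage is given for any group, and the genetic background of the mutant stock is not separated from its genotype.

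The steroid hormone ecdysone, released in pulses, triggers metamorphosis. In imaginal discs it binds the nuclear receptor pair EcR and Usp, which switch on early regulatory genes, and the discs then elongate and evert to form adult structures. The Imp genes were found as transcripts on membrane-bound polysomes of discs cultured with ecdysone, so many encode secreted or membrane proteins. The letters E and L mark genes induced early and late in that culture. ImpE2 encodes a protein secreted at the apical side of the disc epithelium. ImpE1 encodes a protein with repeats like those of the low density lipoprotein receptor. ImpL2 encodes a secreted immunoglobulin-domain protein that binds insulin-like peptides and restrains insulin signalling.

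Gene reads ranged from 11292175 to 27044633 per library. In the mutant libraries gl, the mutated gene, was at 105 and 108 CPM (reads per 1000000 gene reads), against 299 CPM in Canton S and 235 CPM in RAL-208. Markers of the labelled tissue were present in every library, with a summed level of the eye disc markers ey, toy, so, eya, dac, ato and sens of 1469 and 1486 CPM in the mutant libraries, against 1328 CPM in Canton S and 1246 CPM in RAL-208. The discs were sequenced as whole tissue, so a change in the number of expressing cells and a change in RNA per cell cannot be told apart.

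All 5 Imp genes had higher levels in both mutant libraries than in either wild-type strain. The ratio of mean CPM, mutant over wild type, was highest for ImpL1 at 12.2 and lowest for ImpL2 at 1.63. Together the 5 genes took 0.732% and 0.707% of gene reads in the mutant libraries, against 0.339% in Canton S and 0.281% in RAL-208. Groups that do not overlap in this direction were found for 26.2% of the 9059 genes that passed the filter on low counts, and in either direction for 67.2%, so that the order alone is common. A gap of at least 1.5-fold between the lowest mutant and the highest wild-type library, on the scale of CPM plus 1, was found for 2.48% of genes and for 5 of 5 Imp genes. ImpL2 lay only just past that threshold. In the opposite direction the same gap was found for 10.7% of genes. A gap of at least 2-fold was found for 1.07% of genes in the higher direction and 5.63% in the lower, and for 3 of 5 Imp genes, namely ImpE1, ImpE2 and ImpL1.

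**Figure D1:**
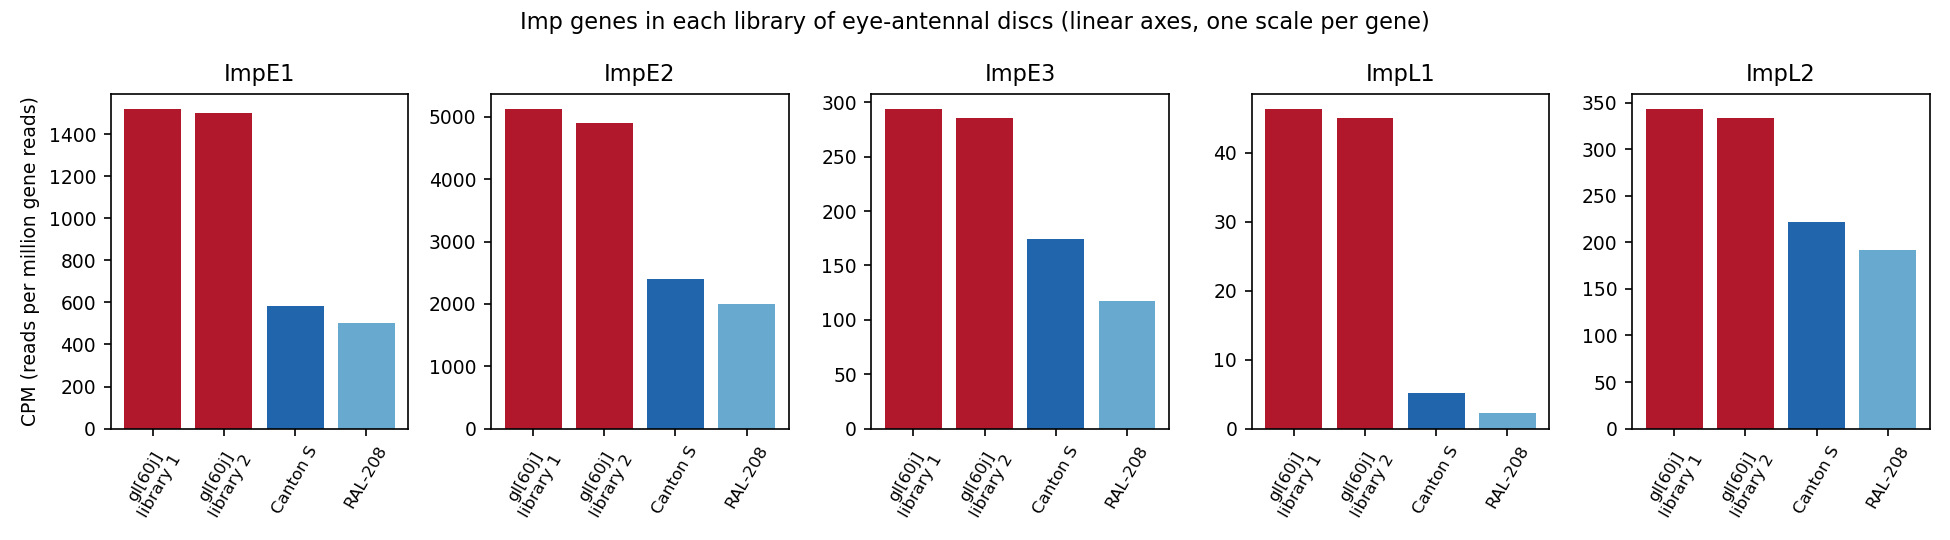
Level of each Imp gene in CPM (linear axis from 0, with its own scale per gene) in each of the 4 libraries, gl[60j] in red and the wild-type strains in blue, 1 bar per library. In each panel the 2 mutant bars are nearly equal and stand above both wild-type bars, and Canton S stands above RAL-208.

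Of the early genes, ImpE1 was at 1518 and 1502 CPM in the mutant libraries, against 584 CPM in Canton S and 504 CPM in RAL-208. Its wild-type mean was 544 ± 56.1 CPM (SD, n = 2), so that even the lower mutant library was 2.57-fold above the higher wild type. The fitted log2 fold change of ImpE1 was 1.54 (SE 0.15), and edgeR's quasi-likelihood test on summed mutant libraries gave it an adjusted p of 0.208.

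ImpE2, the apically secreted disc protein gene, was at 5118 and 4906 CPM in the mutant libraries, against 2405 CPM in Canton S and 1998 CPM in RAL-208. The lower mutant library was 2.04-fold above the higher wild type, and the wild-type mean was 2201 ± 287 CPM (SD, n = 2). The fitted log2 fold change of ImpE2 was 1.25 (SE 0.17), with an edgeR adjusted p of 0.209.

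ImpE3 was at 293 and 285 CPM in the mutant libraries, against 174 CPM in Canton S and 118 CPM in RAL-208. Its wild-type strains lay further apart than those of the other early genes, with a mean of 146 ± 40.1 CPM (SD, n = 2). The fitted log2 fold change of ImpE3 was 1.05 (SE 0.28), with an edgeR adjusted p of 0.244.

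Of the late genes, ImpL1 had 523 and 1219 reads in the mutant libraries, against 63 reads in Canton S and 27 reads in RAL-208, which made it the least abundant of the 5 per length in each library. These reads correspond to 46.3 and 45.1 CPM in the mutant libraries, against 5.20 CPM in Canton S and 2.29 CPM in RAL-208. The lower mutant library was 8.67-fold above the higher wild type in CPM. The fitted log2 fold change of ImpL1 was 3.67 (SE 0.53), which ranked 26 from the top among the 9059 genes, with an edgeR adjusted p of 0.209.

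ImpL2, the insulin-binding protein gene, was at 343 and 334 CPM in the mutant libraries, against 222 CPM in Canton S and 192 CPM in RAL-208. The groups did not overlap, and the wild-type mean was 207 ± 21.4 CPM (SD, n = 2). The fitted log2 fold change of ImpL2 was 0.77 (SE 0.15), with an edgeR adjusted p of 0.212.

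No Imp gene therefore passed the threshold of 0.05 on the adjusted p when the mutant libraries were summed for edgeR. In that fit 0% of the 9059 genes were called in either direction, and the smallest adjusted p was 0.182. Its 1 residual degree of freedom is the difference between Canton S and RAL-208. Its p-values thus set the mutant difference against the spread between those strains, which edgeR moderates for each gene with that of all genes. At an unadjusted p under 0.05 all 5 Imp genes were on the higher side, against 6.44% of all genes tested, with 10.2% of genes on the lower side. At the same unadjusted threshold limma-voom gave 5 of 5 higher, against 8.26% of genes higher and 11.6% lower, and 0 calls after adjustment. DESeq2 on the same columns called 5 of 5 higher, against 1.70% of the genes it adjusted (4.36% were called lower), with adjusted p-values between 8.48e-17 for ImpE1 and 0.00503 for ImpE3. A fit that enters the mutant libraries as separate samples (the fit of 4 libraries) also called 5 of 5 higher, against 8.05% of genes, with edgeR adjusted p-values between 0.00875 for ImpE1 and 0.0352 for ImpE3. Its p-values are too small because part of its spread is technical. With only 1 of the mutant libraries, it has the same 1 residual degree of freedom as the summed fit. That setting, which called no Imp gene whichever library was kept, is therefore no separate check. DESeq2 also had 1 mutant sample, and its default Wald test makes no allowance for the 1 residual degree of freedom. The DESeq2 adjusted p-values can therefore be too small as well. The median fitted log2 fold change of the 5 was 1.25, against 0.0014 over all genes tested.

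**Figure D2:**
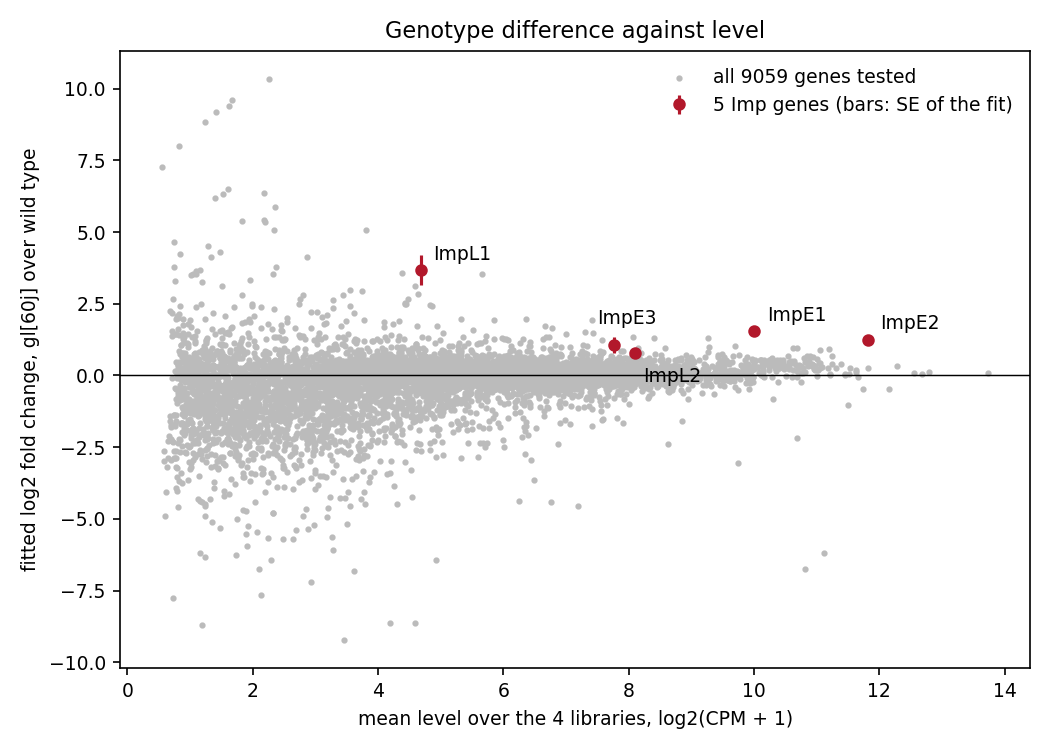
Fitted log2 fold change of gl[60j] over wild type (vertical axis) against the mean level over the 4 libraries as log2(CPM + 1) (horizontal axis) for the 9059 genes tested, with the Imp genes in red and bars for the SE of the fit. ImpE1 and ImpE2 lie above most genes of similar level, at 1.54 and 1.25, and ImpL1 lies at 3.67 at a much lower level.

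The wild-type strains also differed in the Imp genes. All 5 were higher in Canton S than in RAL-208, as were 48.0% of the genes tested, and with the mutant libraries above both strains this order was shared by 16.7% of genes. Between strains, the ratio of Canton S to RAL-208 was 1.16 for ImpE1, with an exact 95% binomial interval of 1.12 to 1.20 that covers counting error only. It was 1.20 for ImpE2 (1.18 to 1.22), 1.48 for ImpE3 (1.38 to 1.59), 2.27 for ImpL1 (1.43 to 3.71) and 1.16 for ImpL2 (1.09 to 1.22). With 1 library per strain, this difference has no replicate check and no test.

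Set against each strain apart, the mutant was higher in both cases for each gene. With both mutant libraries summed, the ratio of mutant to RAL-208 was 2.99 for ImpE1, 2.49 for ImpE2, 2.45 for ImpE3, 19.9 for ImpL1 and 1.75 for ImpL2. The ratio of mutant to Canton S was 2.58 for ImpE1, 2.07 for ImpE2, 1.65 for ImpE3, 8.74 for ImpL1 and 1.52 for ImpL2. ImpE3 came closest to the strain difference, since its ratio of mutant to Canton S of 1.65 stood beside a ratio of 1.48 between the strains.

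The mutant libraries themselves differed little. The ratio of the second to the first mutant library ran from 0.959 for ImpE2 to 0.990 for ImpE1. For ImpE2 the exact 95% interval of 0.949 to 0.968 did not include 1, whereas for the other 4 genes it did. Among the 9080 genes with 20 or more mutant reads, 13.2% had an exact binomial p under 0.05 between these libraries.

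**Figure D3:**
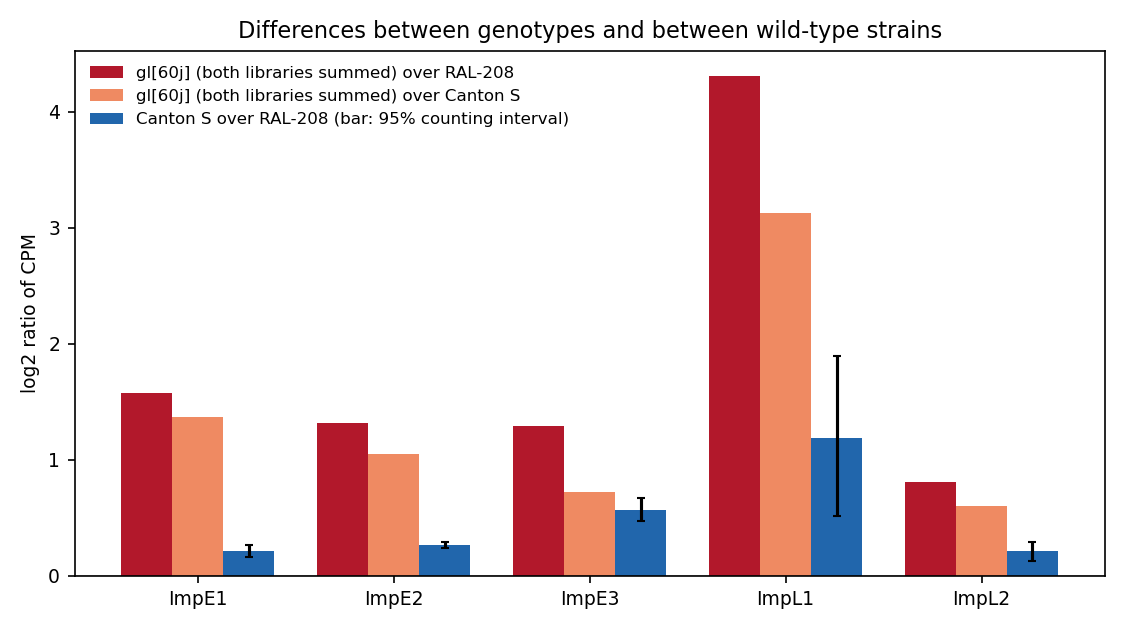
Log2 ratio of CPM for each Imp gene, with gl[60j] (both libraries summed) over RAL-208 and over Canton S in red and orange and Canton S over RAL-208 in blue, whose error bars are exact 95% counting intervals. Each red and orange bar is taller than the blue bar beside it, and for ImpE3 the orange bar (1.65 as a ratio) and the blue bar (1.48) are closest.

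Per kilobase of exon, with exon lengths from the BDGP6 annotation, the Imp genes spanned a wide range of levels. ImpE2 averaged 2934 CPM per kilobase in the mutant libraries, rank 8 of 8368 genes with a known length, against 1289 CPM per kilobase in wild type, rank 54. ImpE3 followed with 264 CPM per kilobase in the mutant, against 133 in wild type, and ImpE1 with 241 in the mutant, against 86.8 in wild type. The level of ImpL2 was 127 CPM per kilobase in the mutant, against 77.6 in wild type. ImpL1 came last with 37.0 CPM per kilobase in the mutant, rank 2047, against 3.03 in wild type, rank 7052.

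The order of the 5 genes per kilobase was the same in every library. Across libraries, ImpE1 and ImpL2 overlapped in wild type, where ImpE1 was at 93.2 CPM per kilobase in Canton S and 80.5 in RAL-208, and ImpL2 at 83.3 in Canton S and 71.9 in RAL-208. In the mutant, ImpE3 at 268 and 261 CPM per kilobase lay close above ImpE1 at 242 and 240. ImpE2 made up 69.9% and 69.4% of all Imp reads in the mutant libraries, against 70.9% in Canton S and 71.0% in RAL-208. ImpL1 made up 0.633% and 0.637% in the mutant libraries, against 0.153% in Canton S and 0.0813% in RAL-208.

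Reads of some members could include those of other genes. In the BDGP6 annotation, CG46460 lies on the same strand as ImpL2 and shares 1651 of the 2667 exon bases of ImpL2. CG46460 is not analysed here, and how reads in the shared part were assigned is not given in the sources used here. ImpE3 lies within the span of CG2747 on the same strand but shares 0 exon bases with it, and CG2747 was at 332 and 318 CPM in the mutant libraries, against 306 CPM in Canton S and 296 CPM in RAL-208. The exons of ImpE1, ImpE2 and ImpL1 overlapped no other annotated gene.

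Genes of ecdysone reception, uptake and turnover did not share one direction. Of 8 tested, the fit of 4 libraries called 3 higher and 1 lower in the mutant, against 8.05% higher and 11.3% lower over all genes, while edgeR with summed mutant libraries called 0. DESeq2 called 0 higher and 1 lower, against 1.70% and 4.36% of the genes it adjusted, so none of the 3 higher calls passed there. Their median log2 fold change was -0.03. The receptor gene EcR was at 171 and 159 CPM in the mutant libraries, against 214 CPM in Canton S and 263 CPM in RAL-208. Its partner usp was at 85.8 and 86.9 CPM in the mutant, against 98.1 CPM in Canton S and 92.2 CPM in RAL-208. EcR and usp were not called by any of these tests.

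Higher calls of that list in the fit of 4 libraries were of genes that move or inactivate the hormone. Oatp74D, whose product imports ecdysone into cells, was at 341 and 334 CPM in the mutant libraries, against 260 CPM in Canton S and 206 CPM in RAL-208. The gene E23, an ecdysone-induced ABC transporter gene, was at 53.7 and 53.4 CPM in the mutant, against 32.8 CPM in Canton S and 22.0 CPM in RAL-208. The third was Cyp18a1, a gene of ecdysteroid inactivation, at 8.68 and 7.76 CPM in the mutant, against 4.04 CPM in Canton S and 2.63 CPM in RAL-208. The lower call was DopEcR, a membrane receptor gene for dopamine and ecdysteroids, at 0.974 and 0.740 CPM in the mutant, against 10.98 CPM in Canton S and 21.1 CPM in RAL-208. Cyp18a1 and DopEcR were named after their values were seen.

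Transcription factors of the ecdysone cascade were also split, with 4 called higher and 2 lower among 10 tested in the fit of 4 libraries, 2 higher and 1 lower in DESeq2 and 0 in edgeR with summed mutant libraries. Over all genes the fit of 4 libraries called 8.05% higher and 11.3% lower, and DESeq2 1.70% higher and 4.36% lower. Their median log2 fold change was 0.08. The nuclear receptor gene Hr3 was at 270 and 262 CPM in the mutant libraries, against 94.5 CPM in Canton S and 52.3 CPM in RAL-208. Blimp-1, an ecdysone-inducible repressor gene, was at 203 and 204 CPM in the mutant, against 114.5 CPM in Canton S and 92.2 CPM in RAL-208. In the other direction, ftz-f1, a nuclear receptor gene of the prepupal period, was at 10.7 and 8.87 CPM in the mutant, against 25.1 CPM in Canton S and 32.2 CPM in RAL-208. The ETS factor gene Eip74EF was at 128 and 117 CPM in the mutant, against 163 CPM in Canton S and 190.0 CPM in RAL-208. The other calls in the fit of 4 libraries were Hr39 and Sox14, both higher, with log2 fold changes of 0.35 and 0.41, and both were named after their values were seen. Eip75B, an early nuclear receptor gene, was at 382 and 371 CPM in the mutant, against 406 CPM in both strains, and was named after its values were seen. Of the 14 genes written for this list, br, Eip93F, Hr4 and Kr-h1 matched no counted gene by name and are not analysed here.

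Among 6 further ecdysone-inducible genes tested, the fit of 4 libraries called 1 higher and 1 lower, against 8.05% higher and 11.3% lower over all genes, and their median log2 fold change was 0.52. DESeq2 called 1 higher (Sb) and 0 lower, against 1.70% and 4.36% of the genes it adjusted, and edgeR with summed mutant libraries 0. The lower call was Edg91, a cuticle protein gene at under 4 CPM in every library, named after its values were seen. The higher call was Sb, a transmembrane serine protease gene needed for disc elongation, at 104 and 101 CPM in the mutant libraries, against 57.0 CPM in Canton S and 41.3 CPM in RAL-208. Ldh, the lactate dehydrogenase gene whose older name is ImpL3, was at 32.4 and 30.7 CPM in the mutant, against 9.49 CPM in Canton S and 21.0 CPM in RAL-208. Its groups did not overlap, but RAL-208 was above Canton S, and the fitted log2 fold change of Ldh was 1.11 (SE 0.53). The adjusted p of Ldh was 0.407 for summed mutant libraries and 0.113 for the fit of 4 libraries, both by edgeR. Cht7, a chitinase gene, was at 19.9 and 19.1 CPM in the mutant, against 21.3 CPM in Canton S and 46.7 CPM in RAL-208. Eip63E, a kinase gene next to ImpE2 in the annotation, was at 153 and 154 CPM in the mutant, against 144 CPM in Canton S and 135 CPM in RAL-208.

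**Figure D4:**
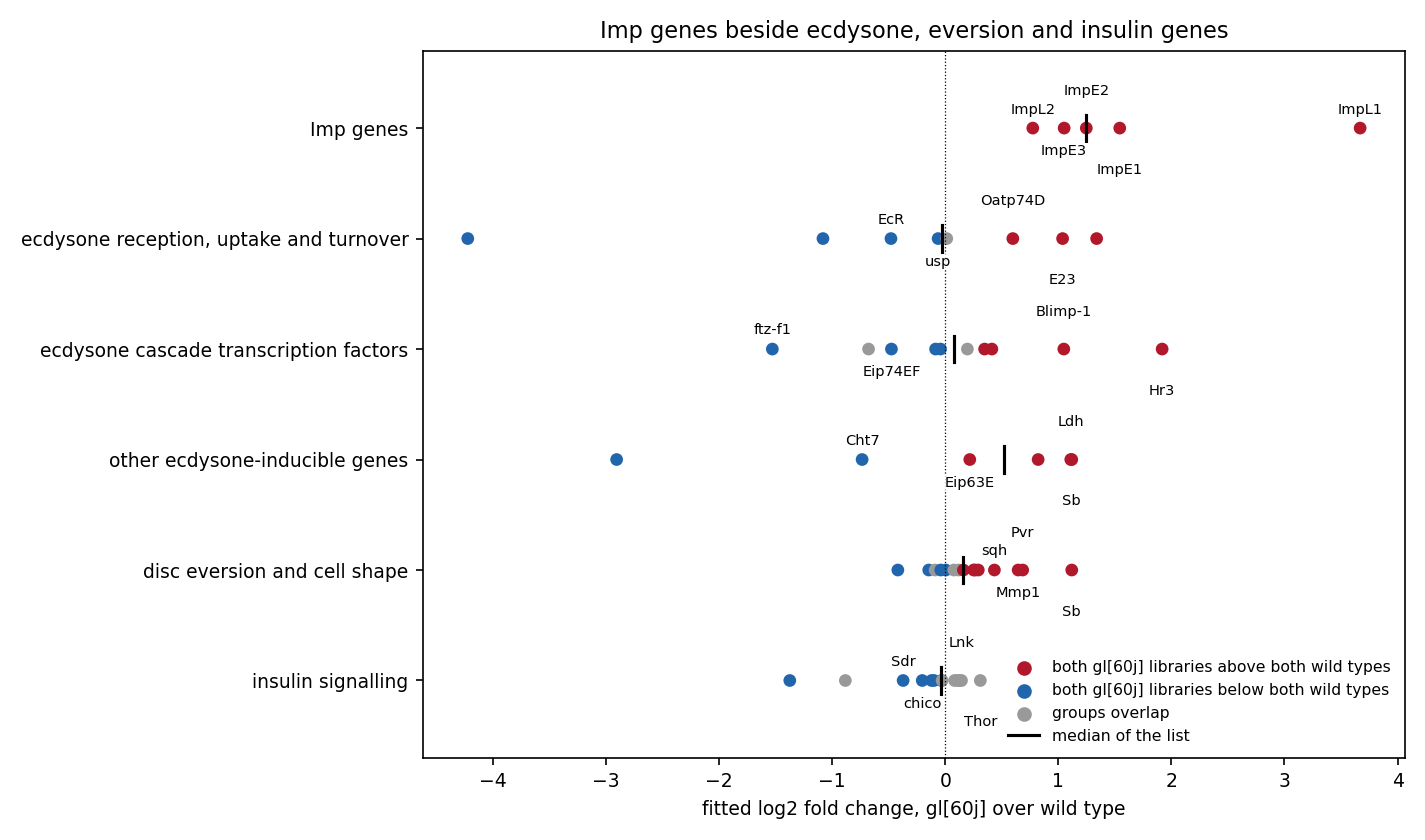
Fitted log2 fold change of gl[60j] over wild type for the Imp genes and for 5 lists of ecdysone, eversion and insulin genes, 1 point per gene and a black tick at each median, in red or blue where both mutant libraries lay above or below both wild types. The Imp genes all lie to the right of 0, from 0.77 to 3.67, whereas each other list has points on both sides.

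Genes of disc eversion and cell shape were compared because ImpE2 and Sb act in discs as they change shape. Of 15 tested, 8 had both mutant libraries above both wild types, against 26.2% of all genes, and 4 had both below, against 41.0% of all genes. The fit of 4 libraries called 2 higher and 0 lower (Sb and sqh), DESeq2 1 higher (Sb) and 0 lower, edgeR with summed mutant libraries 0, and the median log2 fold change was 0.16. Over all genes the fit of 4 libraries called 8.05% higher and 11.3% lower, and DESeq2 1.70% higher and 4.36% lower. The myosin light chain gene sqh was at 286 and 283 CPM in the mutant libraries, against 234 CPM in Canton S and 207.5 CPM in RAL-208. Pvr, a receptor tyrosine kinase gene, was at 143 and 146 CPM in the mutant, against 110 CPM in Canton S and 79.8 CPM in RAL-208, and was not called. The matrix metalloproteinase gene Mmp1 was at 124 and 127 CPM in the mutant, against 62.4 CPM in Canton S and 107 CPM in RAL-208, and was not called either.

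Insulin signalling genes were compared because ImpL2 binds insulin-like peptides. Of 13 tested, 0 were called by edgeR with summed mutant libraries, by the fit of 4 libraries or by DESeq2, and their median log2 fold change was -0.04. Over all genes the fit of 4 libraries called 8.05% higher and 11.3% lower, and DESeq2 1.70% higher and 4.36% lower. Thor, a translation repressor gene downstream of the insulin pathway, was at 112 and 106 CPM in the mutant libraries, between 140 CPM in Canton S and 42.4 CPM in RAL-208. Sdr, a secreted decoy receptor gene, was at 47.0 and 44.5 CPM in the mutant, against 53.8 CPM in Canton S and 69.5 CPM in RAL-208. The adaptor gene chico was at 67.7 and 67.4 CPM in the mutant, against 74.9 CPM in Canton S and 88.8 CPM in RAL-208, and the adaptor gene Lnk at 93.4 and 95.2 CPM in the mutant, against 95.9 CPM in Canton S and 84.5 CPM in RAL-208. Of these, Sdr and chico were below both wild types in the mutant, and Thor and Lnk lay between them. The ligand gene Ilp6 was at 5.31 and 5.58 CPM in the mutant, within the strains' 16.8 CPM in Canton S and 4.57 CPM in RAL-208, and was named after its values were seen.

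Markers of other tissues moved between the libraries as well. Over 2 matched trachea markers, verm and serp, the summed level was 1010 and 1058 CPM in the mutant libraries, against 777 CPM in Canton S and 640 CPM in RAL-208. Both genes lay above both wild types in the mutant, and the fit of 4 libraries called serp higher. That fit called 8.05% of all genes higher and 11.3% lower. Over the glia markers repo, moody and Gli the sum was 633 and 620 CPM in the mutant, against 502 CPM in Canton S and 425 CPM in RAL-208. Of the glia markers, repo and Gli lay above both wild types in the mutant and moody below, and the fit called Gli higher. The sums of the trachea and glia lists thus had the same order of genotypes and strains as the Imp genes. So did the sum of the eye disc markers, and among all genes tested 16.7% had this order. The defining trachea gene of the list, btl, matched no counted gene. Antennal disc markers (Dll, hth, dan and ss) summed to 1432 and 1417 CPM in the mutant, against 1228 CPM in Canton S and 1330 CPM in RAL-208. Of these, the fit of 4 libraries called dan higher and Dll lower, with Dll at 106 and 105 CPM in the mutant, against 139.5 CPM in Canton S and 151 CPM in RAL-208.

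Other marker lists had lower sums in the mutant. The 7 fat body markers summed to 2987 and 2896 CPM in the mutant libraries, against 21119 CPM in Canton S and 12242 CPM in RAL-208. The fit of 4 libraries called 4 of them lower, against 11.3% of all genes. The other markers of that list, Lsp2, Fbp1 and Fbp2, lay between the strains in the mutant. Fbp1 was at 1894 and 1840 CPM in the mutant, against 7835 CPM in Canton S and 56.8 CPM in RAL-208. Central nervous system markers summed to 96.2 and 99.9 CPM over 6 matched genes in the mutant, against 323 CPM in Canton S and 359 CPM in RAL-208, and the same fit called all 6 lower. Photoreceptor markers (elav, gl and Pph13) summed to 232 and 230 CPM in the mutant, against 494 CPM in Canton S and 471 CPM in RAL-208, with Pph13 at 0 reads in the mutant. Ring gland markers summed to 402 and 387 CPM over 4 matched genes in the mutant, against 624 CPM in Canton S and 441 CPM in RAL-208. Of these 4, the fit of 4 libraries called spok and Akh lower, while sad lay above both wild types in the mutant and was not called.

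In the remaining lists the sums of the genotypes overlapped. Salivary gland markers summed to 93.7 and 96.6 CPM in the mutant, between 147 CPM in Canton S and 46.9 CPM in RAL-208. Haemocyte markers summed to 323 and 299 CPM in the mutant, against 315 CPM in Canton S and 678 CPM in RAL-208. Of these 4 genes, NimC1, He and Pxn lay below both wild types in the mutant while Hml lay between them. The fit of 4 libraries called NimC1 lower, against 11.3% of all genes. Muscle markers summed to 150 and 141 CPM over 4 matched genes in the mutant, against 143 CPM in Canton S and 232 CPM in RAL-208. Pph13 was the 1 matched marker at 0 in both libraries of the mutant. The part that these tissues have in the levels of the Imp genes was not tested.

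**Figure D5:**
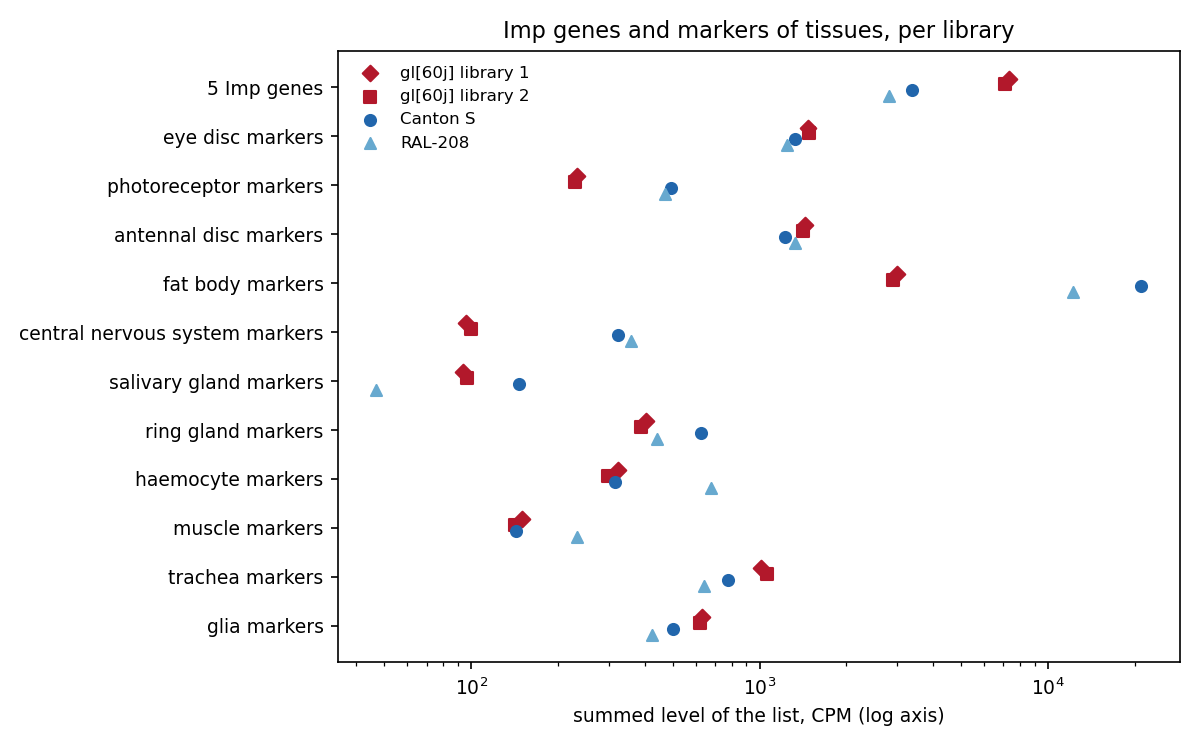
Summed level in CPM (log axis) of the 5 Imp genes and of each marker list, 1 symbol per library, with gl[60j] in red and the wild-type strains in blue. The Imp genes sum to 7319 and 7072 CPM in the mutant libraries, right of 3390 CPM in Canton S and 2814 CPM in RAL-208. Eye disc, antennal disc, trachea and glia markers also lie right of both strains in the mutant. Fat body, central nervous system, photoreceptor and ring gland markers lie left of both strains in the mutant.

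The genes with profiles most like each Imp gene were taken by the smallest distance between centred log2(CPM + 1) values over the 4 libraries, among 6865 other genes with a mean of at least 10 CPM. With 4 libraries from 3 samples, many genes can lie close, and the distances describe these libraries alone. Closest to ImpE1 were CG31549 (distance 0.0846), CG15544 (0.0936) and CG31125 (0.174). Closest to ImpE2 were CG31999 (0.0955), the cuticle protein gene TwdlE (0.0988) and neo (0.106), a gene of apical extracellular matrix. The transporter gene E23 of the ecdysone list was closest to ImpE3 (0.0491), followed by CG4928 (0.0770) and CG17672 (0.0799).

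For the late genes, ImpL1 had CG15522 at a distance of 0.116, with Ir76a (0.618) and CG15756 (0.680) much further away. CG15522 was at 92.3 and 89.3 CPM in the mutant libraries, against 11.3 CPM in Canton S and 4.91 CPM in RAL-208, about the same ratios between libraries as ImpL1 at a higher CPM. ImpL2 had CG17271 (0.0357), CG9503 (0.0448) and CG14257 (0.0463) closest.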

How the data were processed

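Per the labels' protocols, the 4 libraries were made by the TruSeq procedure. Per the submitters' processing notes, the tools were CASAVA 1.8, TopHat2 2.0 and HTSeq and the build dm3, with no roles stated. Whether counting used strand, and the annotation release, is not given in the sources used here. The deposited files hold raw read counts for each FlyBase gene. The counter's summary lines, with 23.3% to 25.6% of the counted total, were left out. Names came from a table of gene IDs and symbols that matched 13746 of 14885 genes; BDGP6 gave exon lengths and gene order, and no coordinates are given because it is not dm3.

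Both mutant libraries were summed, and genes were tested with edgeR 4.0.16 (quasi-likelihood, TMM scaling, filterByExpr on the 4 libraries with a minimum count of 10, Benjamini-Hochberg adjustment at 0.05) in R 4.3.3, with limma 3.58.1 (voom) and DESeq2 1.42.0 as alternatives. The scripts were tested on simulated data. The lone mutant sample is assumed to vary like the wild types, and TMM scaling enters log2 fold changes but not CPM. A floor of 3 reads is 0.111 to 0.266 CPM, and intervals cover counting error only. Named genes were the members, gl, EcR, usp, Ldh, up to 4 genes per pathway list with the largest fitted change at a mean of at least 10 CPM, and the 3 nearest profiles per member; single genes of marker lists were named after their values were seen. The members and lists were chosen with earlier results of these data known.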

Additional observations from a re-analysis of the deposited data

How the results depend on the processing

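All 5 Imp genes were higher in the mutant under every setting run, and none reached the threshold of 0.05 on the adjusted p in limma-voom or in edgeR on summed mutant libraries, with TMM, RLE or library-total scaling, with no filter on low counts, or with only 1 mutant library. Scaling by library totals moved the median of all genes to -0.07. With both mutant libraries as separate samples all 5 passed, at log2 fold changes of 1.54 for ImpE1, 1.25 for ImpE2, 1.05 for ImpE3, 3.67 for ImpL1 and 0.77 for ImpL2, with 729 genes called higher and 1025 lower. DESeq2 also called all 5, at 1.54 for ImpE1, 1.24 for ImpE2, 1.05 for ImpE3, 3.67 for ImpL1 and 0.77 for ImpL2, with 151 genes called higher and 387 lower. The fit of 4 libraries gains a residual degree of freedom by construction. The default Wald test of DESeq2 makes no allowance for the 1 residual degree of freedom. What part this has in the DESeq2 calls was not tested. Leaving out each library in turn, the fit of 4 libraries without 1 strain included (a setting chosen after seeing the data), gave 1.43 to 1.66 for ImpE1, 1.11 to 1.40 for ImpE2, 0.79 to 1.37 for ImpE3, 3.19 to 4.39 for ImpL1 and 0.67 to 0.89 for ImpL2. In the fit of 4 libraries alone these were 1.43 to 1.65, 1.12 to 1.40, 0.79 to 1.37, 3.19 to 4.38 and 0.67 to 0.89, in the same order of genes. With 1 strain left out, the spread in that fit is between technical replicates alone. The wild-type strain left out set these limits: the high ones were without Canton S and the low ones without RAL-208. Genes called higher ran from 0 with only 1 mutant library to 2671 without Canton S (2111 without RAL-208), and genes called lower from 0 to 2678 (2195 without RAL-208). With summed mutant libraries, leaving out a strain leaves 1 sample against 1, so those are values with no test. No paired analysis was possible, because the mutant libraries are technical replicates that count as 1 sample and the wild types are 2 strains. Depth limits ImpL1 most, with 27 reads in RAL-208.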

Other observations

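The genes beside the Imp genes in the BDGP6 annotation were looked up after the values of the Imp genes were seen, taking the nearest gene on each side that passed the filter. Of these 10 neighbours, 2 were called higher and 1 lower by the fit of 4 libraries, against 8.05% higher and 11.3% lower over all genes tested, and 0 by edgeR with summed mutant libraries. Beside ImpL2, the cuticle protein gene Cpr64Ac had 80 and 189 reads in the mutant libraries, against 2 reads in Canton S and 0 reads in RAL-208. Sqor, on the other side of ImpL2, was at 40.9 and 44.1 CPM in the mutant, against 62.6 CPM in Canton S and 66.8 CPM in RAL-208. Beside ImpE1, the isocitrate dehydrogenase gene Idh was at 812 and 810 CPM in the mutant, against 622 CPM in Canton S and 644 CPM in RAL-208, and CG7120 was at 1.42 and 1.74 CPM in the mutant, against 5.53 CPM in Canton S and 3.73 CPM in RAL-208. Beside ImpL1, CG14107 was at 2.83 and 2.37 CPM in the mutant, against 0.908 CPM in Canton S and 0.254 CPM in RAL-208. The fit of 4 libraries did not call CG7120 or CG14107. It did not call the remaining neighbours CG42324, Eip63E, CG2747, CG10903 and CG10171 either.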
